A study of Mus musculus with 24 samples.

Results

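The genes described are 10 inhibitory and paired receptors of myeloid cells, followed in bone marrow-derived macrophages (BMDM) of 2 mouse genotypes. They are Lilrb4a, Lilr4b, Lilra5, Pirb, Sirpa, Cd300a, Cd300lf, Cd300ld, Cd33 and Siglece, 10 of the 54532 genes in the expression table, found there by Ensembl identifier through the GENCODE M21 annotation. Lilrb4a and Lilr4b were picked because earlier results of these same data showed them among the few genes that moved in knockout cells. Their values in any comparison with knockout libraries are therefore a description, with no test, and calls in those comparisons are counted over the other members. Marrow of C57BL/6 mice had been differentiated over 7 days with L929-conditioned medium (L929 is a fibroblast line whose supernatant carries macrophage growth factor). There were 6 groups of 4 libraries each. WT cells and Trem2(-/-) cells, called KO here, were left untreated, received 500 nM sphingosine-1-phosphate (S1P), a lipid signal released by dying cells, or received apoptotic cell culture medium (ACM), for 24 h. ACM had been conditioned by AML12 cells, a mouse hepatocyte line, after 800 µM palmitic acid had made them apoptotic. Trem2, the deleted gene, encodes a lipid-sensing macrophage receptor coupled to Tyrobp. The sources used here give neither the knockout allele nor a vehicle for S1P or a control medium for ACM.

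Paired receptors are sets of closely related surface proteins in which some members inhibit the cell and others activate it. The inhibitory members carry ITIM motifs in their tails, which Src-family kinases phosphorylate and which then recruit the phosphatases Ptpn6 (SHP-1), Ptpn11 (SHP-2) and Inpp5d (SHIP-1), while the activating members borrow the signalling adaptors Fcer1g or Tyrobp. In macrophages these receptors read MHC class I, CD47, sialic acids and the lipids exposed on dying cells, and they set the threshold for phagocytosis and cytokine release.

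The DNA before the start is shown for Cd300a and Cd300lf, members of one gene cluster that differed in their response to S1P in WT cells, and for Lilr4b, picked from knockout cells. Each sequence is the 250 bases before the RefSeq start on build GRCm38.p6, 5′ to 3′ on the strand of the gene, with capitals for matches to the PU.1 core GAGGAA (read on the other strand as TTCCTC) or to the C/EBP motif TTGCNNAA.
Cd300a, plus strand, chr11:114889791-114890040: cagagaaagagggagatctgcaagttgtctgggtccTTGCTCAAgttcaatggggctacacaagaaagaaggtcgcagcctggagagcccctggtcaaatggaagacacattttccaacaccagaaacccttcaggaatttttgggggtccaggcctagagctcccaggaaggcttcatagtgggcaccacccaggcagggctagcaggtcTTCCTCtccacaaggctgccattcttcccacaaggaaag
Cd300lf, minus strand, chr11:115133993-115134242: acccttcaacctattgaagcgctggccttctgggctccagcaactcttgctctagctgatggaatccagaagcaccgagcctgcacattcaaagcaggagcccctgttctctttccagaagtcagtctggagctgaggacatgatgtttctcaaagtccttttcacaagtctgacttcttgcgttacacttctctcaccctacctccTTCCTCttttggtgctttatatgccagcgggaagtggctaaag
Lilr4b, plus strand, chr10:51480362-51480611: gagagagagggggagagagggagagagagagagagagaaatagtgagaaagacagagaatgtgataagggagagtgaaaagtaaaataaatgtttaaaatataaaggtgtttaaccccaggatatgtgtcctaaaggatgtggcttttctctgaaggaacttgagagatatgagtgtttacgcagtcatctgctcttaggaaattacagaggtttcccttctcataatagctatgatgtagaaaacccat
PU.1 is a factor that defines the myeloid lineage. Its core was found, on either strand, in 7 of the 8 members whose promoter was in the table, and in 23.3% of the 32851 RefSeq promoters of the same length. Lilr4b was the member without it. For Cd33 the RefSeq window, chr7:43533172-43533421, lies inside the GENCODE gene, chr7:43524216-43544428. The AP-1 motif TGANTCA was in 0 of the 8 and in 6.75% of all promoters, and the C/EBP motif was in 2 of the 8, Cd300a and Lilra5, and in 9.56% of all promoters. Matches of different motifs did not overlap. A match describes letters in the window and no binding.

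Depth was 16591455 to 25153882 gene reads per library, recovered from the deposited FPKM values (fragments per kilobase of gene, scaled to library depth). Trem2 had 74.5 to 109 FPKM in the 12 WT libraries and 35.7 to 40.7 FPKM in 11 of the 12 KO libraries. The library labelled KO untreated 81 had 79.6 FPKM of Trem2, inside the WT range. Its label goes against that gene, so tested member values from comparisons with untreated KO cells, interactions included, are also given without it. All libraries share the fitted spread of each gene, so library 81 also enters the standard errors of the other comparisons. Those are given without it only where stated. All 8 macrophage markers were at or above 1 FPKM in every library, and the 10 markers of lymphoid, mast and erythroid cells were under 1 FPKM in every library. The summed level of 10 granulocyte markers, 5 of them under 1 FPKM everywhere, was 7.32 to 12.3 FPKM in WT libraries, 21.8 to 24.9 FPKM in treated KO libraries and 7.98 to 22.4 FPKM in KO untreated libraries. The 6 dendritic cell markers, each under 1 FPKM everywhere, summed to 0.0896 to 0.393 FPKM in WT, 0.764 to 1.41 FPKM in treated KO libraries and 0.178 to 1.24 FPKM in KO untreated libraries. The summed level of 8 macrophage markers was 7897 to 8094 FPKM in WT untreated, 6544 to 7275 FPKM in WT ACM and 4646 to 6438 FPKM in WT S1P libraries, and 4620 to 6716 FPKM over the KO libraries. The 5 monocyte markers summed to 26.9 to 29.5 FPKM in WT untreated, 24.98 to 27.6 FPKM in WT ACM and 10.8 to 20.5 FPKM in WT S1P libraries, and to 19.6 to 28.3 FPKM over the KO libraries. Within WT, the macrophage and monocyte sums were lowest with S1P, the group in which Cd300a was highest and Cd33 lowest. The ranges for KO untreated libraries and over the KO libraries include library 81. They were not computed without it, so which library sets their ends is not shown. The 6 hepatocyte markers summed to 2.66 to 3.24 FPKM in WT S1P libraries and to 0.96 to 1.73 FPKM in all others. Nearly all of that sum was Afp, at 0.960 to 3.24 FPKM, and the other 5 were under 1 FPKM everywhere. The sum therefore describes Afp and not the list. The part of any of these markers in the treatment or genotype differences was not tested. In bulk RNA, fewer cells of a type and less RNA per cell cannot be told apart. The labels name no separate culture, animal or batch for a library, so p-values measure only the spread between libraries, which may be technical. All WT library numbers are lower than all KO numbers and each group holds its own run of numbers, so genotype or treatment and any order of preparation behind the numbers cannot be told apart.

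FPKM is a level per length, so members can be ranked on it. Over the 24 libraries Sirpa had 273 to 336 FPKM, Lilr4b 200.2 to 301 FPKM, Lilrb4a 98.0 to 186 FPKM and Cd300ld 116 to 178 FPKM. Pirb followed with 62.4 to 85.2 FPKM, Cd300a with 17.7 to 77.9 FPKM, Cd300lf with 20.03 to 30.8 FPKM and Cd33 with 6.30 to 37.8 FPKM. The ranges of Sirpa and Lilr4b overlapped, as did those of Lilrb4a and Cd300ld, those of Pirb and Cd300a, and those of Cd300a, Cd300lf and Cd33. Siglece, the main ITIM-bearing Siglec of mouse neutrophils and macrophages (GRCm38 chr7:43651070-43660161), was at 0.521 to 1.67 FPKM and reached 1 FPKM in 10 libraries. Lilra5, an activating relative of Lilrb4a that signals through Fcer1g (chr7:4237754-4243463), had 0 to 0.240 FPKM, or 0 to 11 reads per library, and did not pass the minimum of 1 FPKM in 4 libraries, which the other 9 members passed. The highest group mean was 4.68 times the lowest for Cd33, 3.74 times for Cd300a and 1.14 times for Sirpa. In these cells, then, Cd33 and Cd300a spanned the widest range of the 9 tested members and Sirpa the narrowest.

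**Figure D1:**
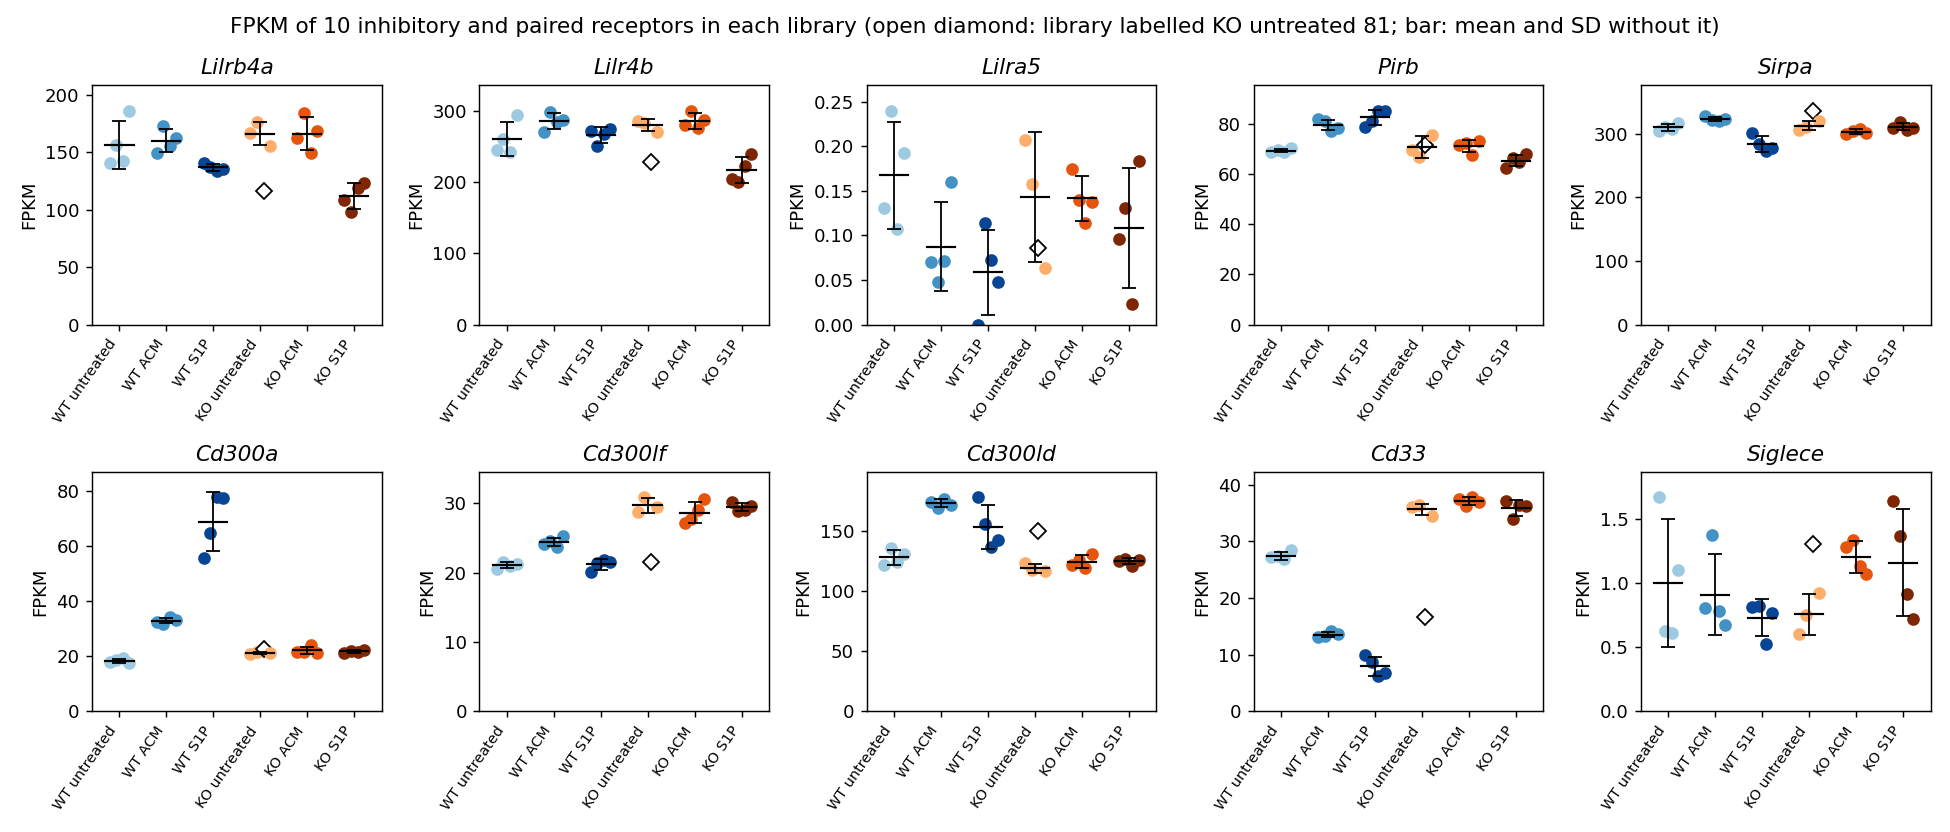
FPKM of each of the 10 receptor genes in every library, by group, with the library labelled KO untreated 81 drawn apart and group means as lines. Cd300a climbs from about 18.5 FPKM in untreated WT cells to 69.0 FPKM under S1P and stays near 21.8 FPKM in KO cells under S1P, while Cd33 runs the other way, 27.5 to 7.93 FPKM in WT.

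In WT cells, the 2 treatments raised Cd300a and lowered Cd33. The differences below are in log2(FPKM + 1) with the standard error, from limma over 11377 genes with Benjamini-Hochberg adjustment. They understate changes of low genes, and both treatments share the untreated libraries. With ACM, 5 of the 9 tested members changed at an adjusted p under 0.05, 4 up and 1 down, where 22.1% of all tested genes did. With S1P, 5 of 9 changed, 3 up and 2 down, which is close to the 52.4% of all tested genes. Between S1P and ACM, 5 of 9 differed, 1 higher and 4 lower with S1P, where 41.5% of all tested genes did. Groups without overlap, described below for single members, were common. Libraries did not overlap for 28.8% of all tested genes between ACM and untreated. The share was 45.2% between S1P and untreated and 37.2% between S1P and ACM.

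Cd33 encodes a sialic acid-binding lectin of the Siglec family (GRCm38 chr7:43524216-43544428). Its levels were 27.3, 27.4, 26.9 and 28.5 FPKM in untreated WT libraries, 13.1, 13.3, 14.2 and 13.7 FPKM with ACM, and 9.92, 8.79, 6.30 and 6.72 FPKM with S1P. The 3 groups did not overlap, and the order was untreated, ACM, S1P. Cd33 fell by 0.97 ± 0.16 with ACM (limma adjusted p = 0.000199), a 2.03-fold lower mean FPKM. With S1P it fell by 1.69 ± 0.16 (limma adjusted p = 1.48e-08), a 3.47-fold lower mean. S1P libraries were also lower than ACM libraries, by -0.72 ± 0.16 (limma adjusted p = 0.001). For Siglece, the other Siglec, the differences were -0.05 ± 0.16 with ACM and -0.18 ± 0.16 with S1P (limma adjusted p = 0.856 and 0.353), on 19 to 60 reads per library, so no change was detectable at this depth.

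Cd300a encodes an ITIM receptor that binds phosphatidylserine and phosphatidylethanolamine on dying cells (GRCm38 chr11:114890041-114904654). It had 18.1, 18.6, 19.4 and 17.7 FPKM in untreated WT libraries, 32.7, 31.8, 34.1 and 33.3 FPKM with ACM, and 55.9, 64.8, 77.9 and 77.7 FPKM with S1P. The groups did not overlap and the spread was widest with S1P, at 69.0 ± 10.7 FPKM (SD, n = 4). Cd300a rose by 0.80 ± 0.07 with ACM (limma adjusted p = 9.56e-08), a 1.79-fold higher mean. It rose by 1.83 ± 0.07 with S1P (limma adjusted p = 2.12e-14), a 3.74-fold higher mean, and S1P exceeded ACM by 1.03 ± 0.07 (limma adjusted p = 1.2e-09). The promoter shown above holds 1 PU.1 core match and 1 C/EBP match for this gene.

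Cd300ld, an activating member of the same cluster that pairs with Fcer1g (GRCm38 chr11:114982274-114989922), had 122, 136, 124 and 130 FPKM untreated, 174, 169, 177 and 172 FPKM with ACM, and 178, 156, 137 and 142 FPKM with S1P. Both treated groups lay above the untreated one, and the S1P libraries ranged from just above it to the top of the ACM values. It rose by 0.43 ± 0.07 with ACM and by 0.25 ± 0.07 with S1P (limma adjusted p = 0.000191 and 0.00525). The difference of S1P from ACM was -0.18 ± 0.07 (limma adjusted p = 0.0447). It was lost in 21 of 33 alternatives, 16 of which leave out 1 library. Without WT S1P 27 it was -0.13 (limma adjusted p = 0.181), and without KO untreated 81 -0.18 ± 0.06 (limma adjusted p = 0.0122).

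Cd300lf, an ITIM member that also binds phosphatidylserine (GRCm38 chr11:115116214-115133992), overlaps Rab37 on the other strand, and without a stated strand setting their reads cannot be told apart. It had 20.5, 21.5, 20.99 and 21.3 FPKM untreated, 24.1, 24.5, 23.7 and 25.2 FPKM with ACM, and 20.03, 21.4, 21.8 and 21.5 FPKM with S1P. Only the ACM libraries stood apart from the other WT groups, above them. The rise with ACM was 0.20 ± 0.07 (limma adjusted p = 0.0402), and leaving out any 1 of the 8 libraries compared ended the call, with adjusted p of 0.0572 to 0.0952. TPM scaling also ended it, at 0.09 (adjusted p = 0.481), as did quantile normalization (0.18) and no filter (0.20). With KO untreated 81 left out the rise stayed called, at 0.20 ± 0.03 (limma adjusted p = 0.000183). The difference with S1P was 0.01 ± 0.07 (limma adjusted p = 0.95). S1P was lower than ACM by -0.20 ± 0.07 (limma adjusted p = 0.0269), a call lost without WT ACM 20 (-0.19), WT ACM 22 (-0.18) or WT S1P 25 (-0.17). It was also lost with TPM scaling (-0.13, adjusted p = 0.305), median scaling (-0.17), quantile normalization (-0.17) and no filter (-0.20). Without KO untreated 81 the call was kept, at -0.20 ± 0.03 (limma adjusted p = 0.000107).

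Pirb, an ITIM receptor for MHC class I and the mouse counterpart of the human LILRB genes (GRCm38 chr7:3711409-3720391), had 68.9, 69.4, 68.6 and 70.3 FPKM untreated, 81.7, 80.9, 77.0 and 78.3 FPKM with ACM, and 78.7, 81.1, 84.9 and 85.2 FPKM with S1P. Every treated library exceeded every untreated one. Pirb rose by 0.19 ± 0.04 with ACM and by 0.25 ± 0.04 with S1P (limma adjusted p = 0.000653 and 6.33e-06). TPM scaling ended the ACM call, at 0.08 (adjusted p = 0.318). Pirb shares much of its sequence with the activating Pira genes, so reads could be split between them. Sirpa, the ITIM receptor for the CD47 signal that restrains phagocytosis (GRCm38 chr2:129592835-129632228), had 304, 311, 307 and 316 FPKM untreated, 327, 321, 319 and 322 FPKM with ACM, and 301, 283, 273 and 277 FPKM with S1P. The S1P libraries were the lowest of the 3 groups. Sirpa fell by 0.13 ± 0.03 with S1P (limma adjusted p = 0.00127), and the difference with ACM was 0.06 ± 0.03 (limma adjusted p = 0.182). Quantile normalization ended the S1P call, at -0.03.

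Lilrb4a encodes an ITIM receptor known as gp49B, and Lilr4b its near-copy gp49A, which lacks the ITIMs. They lie side by side (GRCm38 chr10:51490956-51496611 and chr10:51480632-51486703) inside a predicted gene on the same strand, and Lilrb4a also overlaps an antisense gene. Reads of the 2 genes could have been exchanged. In WT cells Lilrb4a had 141, 156, 142 and 186 FPKM untreated, 149, 173, 156 and 162 FPKM with ACM, and 141, 137, 134 and 135 FPKM with S1P. Its ACM libraries lay within the untreated range, and 3 of the 4 S1P libraries lay below it. Lilr4b had 245, 261, 242 and 295 FPKM untreated, 271, 299, 285 and 288 FPKM with ACM, and 272, 251, 268 and 275 FPKM with S1P, again overlapping. Neither passed the test against untreated WT cells. For Lilrb4a the differences were 0.04 ± 0.10 with ACM and -0.18 ± 0.10 with S1P (limma adjusted p = 0.8288 and 0.152). For Lilr4b they were 0.14 ± 0.07 and 0.03 ± 0.07 (limma adjusted p = 0.175 and 0.716). Between S1P and ACM, all 4 S1P libraries lay below all 4 ACM libraries for Lilrb4a, at -0.22 ± 0.10 (limma adjusted p = 0.0947). Leaving library 81 out brought that difference past the threshold (-0.22 ± 0.08, adjusted p = 0.0307), as did a fit of the 2 groups alone (adjusted p = 0.00697). For Lilr4b it was -0.10 ± 0.07 (limma adjusted p = 0.264).

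**Figure D2:**
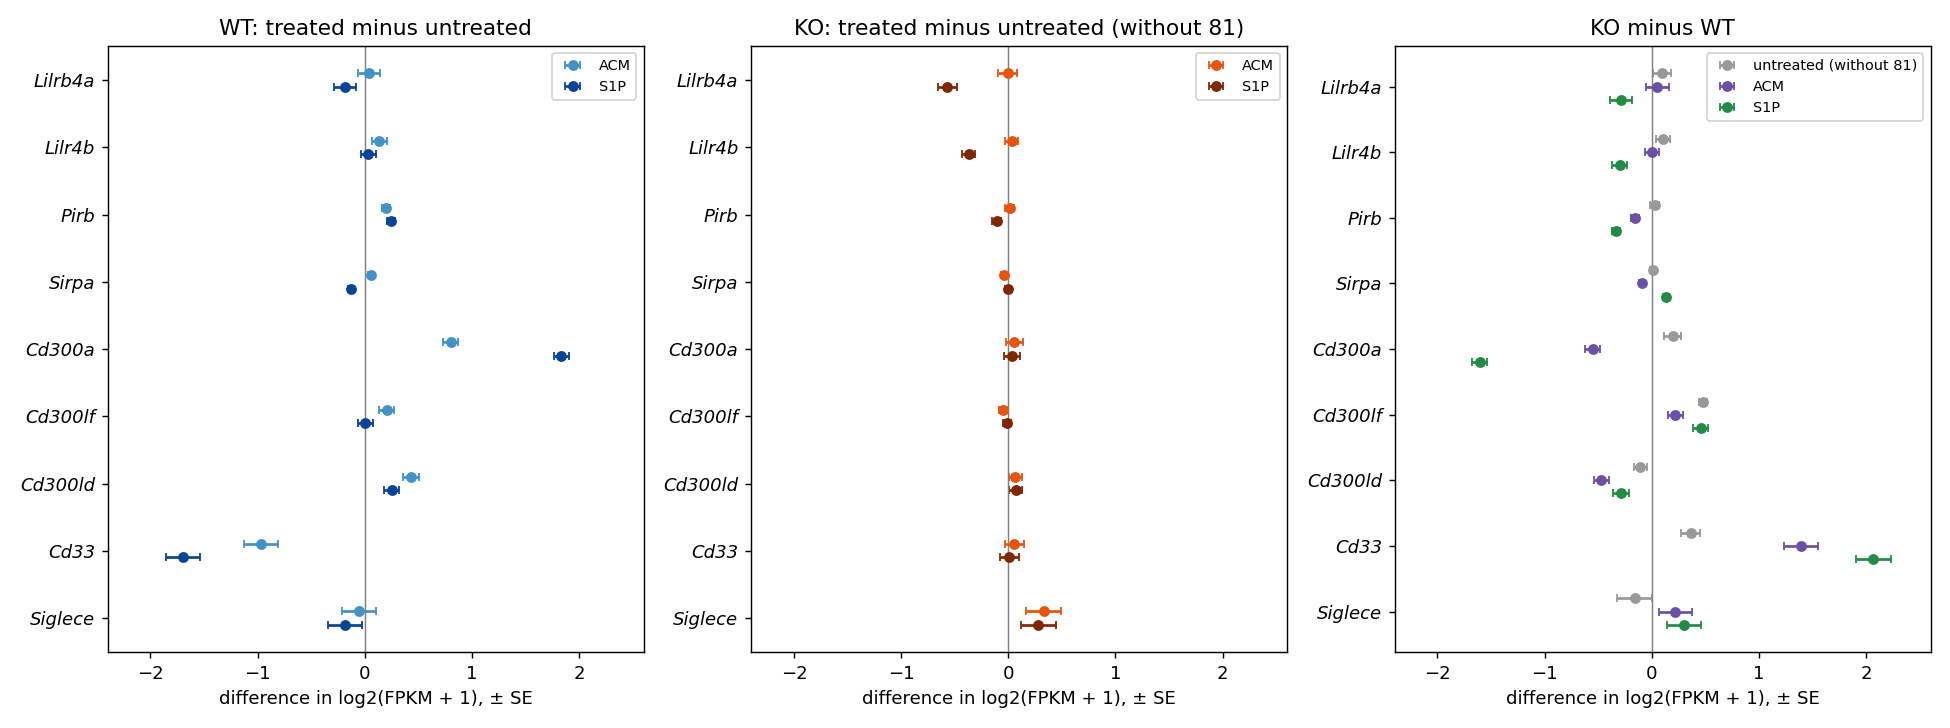
Difference in log2(FPKM + 1) with its standard error for the 9 members with a value, in WT cells (left, treated minus untreated), in KO cells (middle, without the library labelled KO untreated 81) and between genotypes (right, KO minus WT, with untreated also without that library). In WT, Cd300a and Cd33 lie farthest from 0, at 1.83 and -1.69 with S1P, and in KO cells the points below 0 are led by Lilrb4a and Lilr4b with S1P, which were picked for it.

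In KO cells, none of the 7 members whose test is read was called with either treatment. Almost no tested gene was called in these comparisons, so 0 of 7 does not set the members apart. With all libraries, 0 of 7 were called with ACM, where 0.00879% of all tested genes were, and 0 of 7 with S1P, where 0.00879% were. Between S1P and ACM it was 0 of 7, where 0.0352% were. Sirpa differed by -0.07 ± 0.03 with ACM (limma adjusted p = 0.518), and by -0.04 ± 0.03 without library 81 (limma adjusted p = 0.776). Pirb differed by -0.11 ± 0.04 with S1P (limma adjusted p = 0.286), and by -0.11 ± 0.04 without library 81 (limma adjusted p = 0.368). Between S1P and ACM, Pirb differed by -0.12 ± 0.04 (limma adjusted p = 0.357). The fit with voom on the recovered reads also called 0 of 7. Without the library labelled KO untreated 81 the counts were again 0 of 7, with 0.0439% and 0.185% of all tested genes called for ACM and S1P against untreated. Cd300a had 20.9, 21.8, 22.5 and 21.1 FPKM in KO untreated libraries, 21.6, 21.6, 24.0 and 21.4 FPKM with ACM, and 21.4, 21.8, 21.6 and 22.4 FPKM with S1P. The 3 groups overlapped, between 20.9 and 24.0 FPKM. Cd33 had 36.1, 36.4, 16.7 and 34.5 FPKM in KO untreated libraries (16.7 in library 81), 37.5, 36.3, 37.8 and 37.0 FPKM with ACM, and 37.2, 34.0, 36.4 and 36.2 FPKM with S1P. Apart from library 81, whose Cd33 lay between the WT ACM and WT untreated levels, the KO groups overlapped. For Cd33 without that library, the differences were 0.06 ± 0.09 with ACM and 0.01 ± 0.09 with S1P (limma adjusted p = 0.934 and 0.988).

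Lilrb4a and Lilr4b were lower with S1P in KO cells, which is what they were picked for. Lilrb4a had 166, 177, 116 and 156 FPKM in KO untreated libraries (116 in library 81), 162, 184, 149 and 169 FPKM with ACM, and 109, 98.0, 119 and 123 FPKM with S1P. All 4 S1P libraries were under all 4 ACM libraries, and library 81 lay among the S1P values. Lilr4b had 286, 284, 228 and 270.5 FPKM in KO untreated libraries (228 in library 81), 280.1, 301, 277 and 287 FPKM with ACM, and 204, 200.2, 223 and 240.1 FPKM with S1P. The same separation of S1P from ACM held for it. It held in either direction for 6.32% of all tested genes, and the pair was picked for moving in these cells. From KO ACM to KO S1P the difference was -0.56 for Lilrb4a and -0.40 for Lilr4b. Against KO untreated it was -0.44 and -0.30 with all libraries, and -0.57 and -0.37 without library 81. Against WT S1P it was -0.29 and -0.30, and KO ACM differed from WT ACM by 0.05 and 0.00. Of the other members, Pirb was at -0.12 between KO S1P and KO ACM and Siglece at -0.05.

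The ratio of Lilr4b to Lilrb4a was highest with S1P in both genotypes, given here as a description. As a ratio of FPKM per library it averaged 1.68 untreated, 1.79 with ACM and 1.95 with S1P in WT cells, and 1.76, 1.73 and 1.94 in the matching KO groups. Without library 81 the KO untreated mean was 1.69, below that with ACM. Over all 24 libraries it ran from 1.58 to 2.04. So the ITIM-bearing gene was the lower of the 2 in every library, and on average most so with S1P. By the root mean square difference of their centred log2(FPKM + 1) profiles over the 6 group means, taken without library 81, Lilr4b lay 0.0876 from Lilrb4a. The other genes nearest to Lilrb4a, among 6723 candidates with a mean of at least 5 FPKM, were Rgl2 (0.116), Zfp692 (0.117), Tagap1 (0.133), Dennd1c (0.135) and Phka2 (0.135), where the median candidate lay at 0.224. Nearest to Lilr4b were Zfp692 (0.0456), Rps6kb2 (0.0657), Ccnl2 (0.0748), Hnrnph1 (0.0761) and Rgl2 (0.0797), where the median was 0.167. The distance is not scaled, so a gene that varies little can lie near. The root mean square of the centred profile was 0.202 for Lilrb4a and 0.0964 to 0.151 for its 5 named genes. It was 0.139 for Lilr4b and 0.0783 to 0.112 for its 5. Dennd1c and Phka2 were lowest in WT S1P, at 8.96 and 9.72 FPKM, with 9.42 and 10.6 FPKM in KO S1P. The profiles include the KO S1P values for which the pair was picked, and the points share their libraries.

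**Figure D3:**
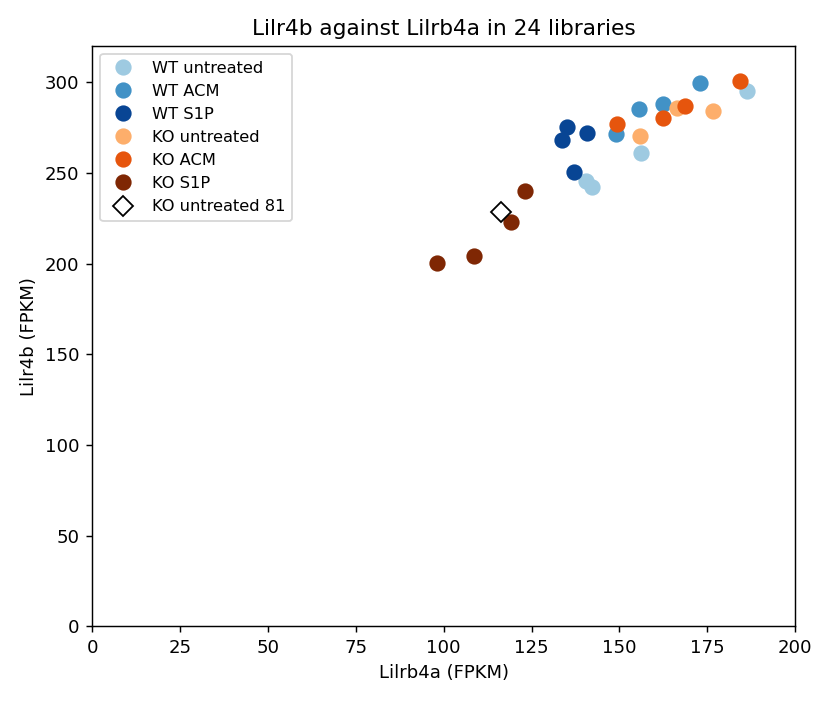
Lilr4b against Lilrb4a, both in FPKM from 0, 1 point per library, colours by group and a diamond for the library labelled KO untreated 81. The KO S1P libraries sit lowest on both axes, at 98.0 to 123 FPKM of Lilrb4a, and the diamond lies among them at 116 FPKM.

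In untreated cells 1 of 7 members, Cd300lf, differed between genotypes with all libraries, where 2.47% of all tested genes did, and 2 of 7, Cd300lf and Cd33, without the library labelled KO untreated 81, where 8.16% did. Cd300lf had 28.8, 30.8, 21.5 and 29.5 FPKM in KO untreated libraries, against 20.5 to 21.5 FPKM in WT. Library 81 had 21.5 FPKM, close to the WT libraries, and the other 3 exceeded them. Untreated KO and WT libraries did not overlap for 9.09% of all tested genes, and for 22.5% without library 81. Cd300lf was higher in KO by 0.36 ± 0.07 (limma adjusted p = 0.00694), and by 0.48 ± 0.04 without library 81 (limma adjusted p = 3.22e-08). The call was lost with TPM scaling, at 0.32, and with only the 2 groups in the fit. Cd33 differed by 0.10 ± 0.16 with all libraries (limma adjusted p = 0.798) and by 0.36 ± 0.09 without library 81 (limma adjusted p = 0.0111). Cd300a differed by 0.21 ± 0.07 (limma adjusted p = 0.111), and by 0.19 ± 0.08 without library 81 (adjusted p = 0.134), and passed without WT S1P 25 (adjusted p = 0.0187); its KO untreated libraries, at 20.9 to 22.5 FPKM, lay above the WT ones.

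Under treatment, KO and WT cells differed in most members. With ACM 6 of 7 differed, 2 higher and 4 lower in KO, where 28% of all tested genes differed. With S1P 6 of 7 differed, 3 higher and 3 lower, where 52.4% did. Cd33 was higher in KO by 1.39 ± 0.16 with ACM and by 2.07 ± 0.16 with S1P (limma adjusted p = 2.38e-06 and 9.55e-10), or 2.74-fold and 4.53-fold in mean FPKM. Cd300a was lower by -0.55 ± 0.07 with ACM and by -1.61 ± 0.07 with S1P (limma adjusted p = 6.8e-06 and 2.13e-13), the latter a 3.17-fold lower mean. No KO library overlapped the WT libraries of the same treatment for either gene. The same held for 32.4% of all tested genes with ACM and for 46.6% with S1P.

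Cd300ld was lower in KO by -0.47 ± 0.07 with ACM and by -0.29 ± 0.07 with S1P (limma adjusted p = 3.67e-05 and 0.00166). Its KO libraries had 123, 117, 150 and 116 FPKM untreated (150 in library 81), 121, 126, 119 and 131 FPKM with ACM, and 125, 127, 121 and 126 FPKM with S1P, which lie near WT untreated levels. Cd300lf was higher in KO by 0.22 ± 0.07 and 0.46 ± 0.07 (limma adjusted p = 0.0206 and 8.97e-06). Its KO libraries had 27.1, 27.7, 28.9 and 30.6 FPKM with ACM and 30.1, 28.8, 29.0 and 29.7 FPKM with S1P, all above the WT libraries. The ACM call was lost without WT ACM 21 (0.21, adjusted p = 0.0525) or KO ACM 88 (0.19, adjusted p = 0.0731). With no filter it was also lost (0.22, limma adjusted p = 0.0502). Without library 81 it was kept, at 0.22 ± 0.03 (limma adjusted p = 4.42e-05).

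Pirb was lower in KO by -0.16 ± 0.04 with ACM and by -0.33 ± 0.04 with S1P (limma adjusted p = 0.00253 and 1.27e-07). It had 69.6, 66.9, 71.4 and 75.4 FPKM in KO untreated libraries, 71.6, 72.5, 67.6 and 73.0 FPKM with ACM, and 62.4, 66.4, 64.9 and 67.8 FPKM with S1P. TPM scaling ended the ACM call for Pirb, at -0.10 (adjusted p = 0.231). Sirpa was lower in KO with ACM, by -0.09 ± 0.03 (limma adjusted p = 0.0321), and higher with S1P, by 0.13 ± 0.03 (limma adjusted p = 0.000949). Sirpa had 306, 310, 336 and 320 FPKM in KO untreated libraries, 299, 304, 307 and 301 FPKM with ACM, and 309, 318, 306 and 309 FPKM with S1P. The ACM call was lost in 9 of 33 alternatives, 6 of them leaving out 1 library, and at -0.03 with TPM scaling. Without library 81 the ACM call was kept, at -0.09 ± 0.03 (limma adjusted p = 0.0137). TPM scaling and quantile normalization ended the S1P call, at 0.08 and 0.02. For Siglece the differences were 0.22 ± 0.16 with ACM and 0.30 ± 0.16 with S1P (limma adjusted p = 0.324 and 0.115), and the latter passed without KO S1P 94 (0.41, adjusted p = 0.0461).

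The difference between genotypes in the response itself was tested as an interaction, KO response minus WT response. For ACM 5 of 7 members passed, where 17.1% of all tested genes did, and for S1P 4 of 7, where 41.9% did. Without library 81 it was again 5 of 7 and 4 of 7, where 14.9% and 41.5% did. Cd300a had -0.77 ± 0.10 for ACM and -1.82 ± 0.10 for S1P (limma adjusted p = 3.15e-05 and 2.58e-11), and -0.75 ± 0.10 and -1.80 ± 0.10 without library 81. Cd33 had 1.29 ± 0.23 and 1.97 ± 0.23 (limma adjusted p = 0.000608 and 7.73e-07), and without library 81 1.03 ± 0.12 and 1.70 ± 0.12. For both genes the WT response was larger and the KO response smaller. Pirb had -0.19 ± 0.05 and -0.36 ± 0.05 (limma adjusted p = 0.016 and 9.26e-06), and -0.18 ± 0.05 and -0.36 ± 0.05 without library 81, the ACM call being lost with TPM scaling at -0.07. Cd300ld had -0.45 ± 0.10 and -0.26 ± 0.10 (limma adjusted p = 0.00365 and 0.0392), and without library 81 -0.37 ± 0.08 (limma adjusted p = 0.00448) and -0.18 ± 0.08 (limma adjusted p = 0.0873), which is no longer called. The S1P call was also lost with TPM scaling, no filter or only the groups compared, and without WT untreated 1 or 3, WT S1P 25 or 26, or KO S1P 91, 93 or 94, at -0.19 to -0.27. Sirpa had -0.13 ± 0.04 for ACM (limma adjusted p = 0.0468), lost in 21 of 33 alternatives, and -0.10 ± 0.04 without library 81 (adjusted p = 0.0901); for S1P it had 0.09 ± 0.04 (limma adjusted p = 0.0852), and 0.12 ± 0.04 without library 81 (adjusted p = 0.0166) or 0.12 without WT S1P 25. For Cd300lf the ACM value was -0.14 ± 0.10 (limma adjusted p = 0.343), and -0.26 ± 0.05 without library 81 (adjusted p = 0.00162). Each of these interactions uses the untreated libraries that the treatment comparisons also use.

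The genes that signal with these receptors were taken from lists of ITIM phosphatases and kinases, activating adaptors and kinases, and ligands. Calls below are limma adjusted p under 0.05 over all tested genes, with the shares of all genes as given above. Of the 11 ITIM phosphatases and kinases, 4 were higher and 0 lower with ACM in WT, and 1 higher and 5 lower with S1P, with median differences of 0.02 and -0.09. The median over all tested genes was -0.0013 and 0.0038. With S1P, Ptpn6 fell by 0.34 ± 0.04, from 105 to 83.3 FPKM, the phosphatase Inpp5d fell by 0.37 ± 0.05, the kinase Lyn fell by 0.33 ± 0.05 and the adaptor Dok2 fell by 0.59 ± 0.06, from 73.7 to 48.9 FPKM. In KO against WT with S1P, 6 were higher and 2 lower, with a median of 0.16, led by Inpp5d at 0.62 ± 0.05 and Lyn at 0.45 ± 0.05. With ACM, 2 were higher and 3 lower in KO, with a median of 0.0032.

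Of the 9 activating adaptors and kinases, 1 was higher and 0 lower with ACM in WT, and 2 were higher and 3 lower with S1P. Fcer1g, the adaptor of Cd300ld and Lilra5, fell by 0.32 ± 0.06 with S1P, from 710.4 to 571 FPKM, while the kinase Syk rose by 0.20 ± 0.02. In KO against WT with S1P 5 were higher and 2 lower, among them Fcer1g at 0.51 ± 0.06 and Tyrobp at 0.22 ± 0.05. Of the 8 ligand genes 7 were tested, and 5 were higher and 1 lower with ACM in WT, and 5 higher and 0 lower with S1P. The MHC class I gene H2-D1, a Pirb ligand, rose by 0.42 ± 0.05 and 0.67 ± 0.05, H2-K1 by 0.32 ± 0.03 and 0.31 ± 0.03, and Cd47, the ligand of Sirpa, by 0.36 ± 0.07 and 0.27 ± 0.07. In KO against WT, 2 were higher and 4 lower with ACM, and 1 higher and 4 lower with S1P. H2-D1 was lower by -0.31 ± 0.05 and -0.47 ± 0.05, whereas Apoe, a ligand of human LILRB4, was higher by 0.56 ± 0.09 and 0.71 ± 0.09.

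Family relatives outside the 10 members were also counted. Of 27 listed relatives 20 were found in the annotation and 8 were tested. With ACM in WT 3 were higher and 1 lower, with S1P 3 and 3, and in KO against WT 0 and 3 with ACM and 3 and 2 with S1P. Cd300lb, an activating member of the Cd300 cluster, rose by 0.16 ± 0.03 with ACM and by 0.32 ± 0.03 with S1P, and was lower in KO under S1P by -0.38 ± 0.03. Siglec1, the sialic acid-binding adhesion receptor of tissue macrophages, rose by 0.37 ± 0.11 with ACM and fell by 0.60 ± 0.11 with S1P. Of 12 other inhibitory receptors 11 were tested, with 3 higher and 3 lower for ACM in WT, 2 and 5 for S1P, 4 and 4 in KO against WT for ACM, and 6 and 3 for S1P. Fcgr2b, the inhibitory Fc receptor for IgG, fell by 1.51 ± 0.13 with S1P in WT, from 39.7 to 13.5 FPKM, and was 2.10 ± 0.13 higher in KO S1P, at 60.3 FPKM. Of 16 genes of sialic acid synthesis and removal, 15 were tested: 3 were higher and 1 lower with ACM in WT, 6 and 5 with S1P, 0 and 3 in KO against WT with ACM, and 5 and 5 with S1P. Cmas, which activates sialic acid for transfer, rose by 0.57 ± 0.05 with S1P and was lower by -0.44 ± 0.05 in KO S1P. In the comparisons among KO groups every list had 0 genes called.

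**Figure D4:**
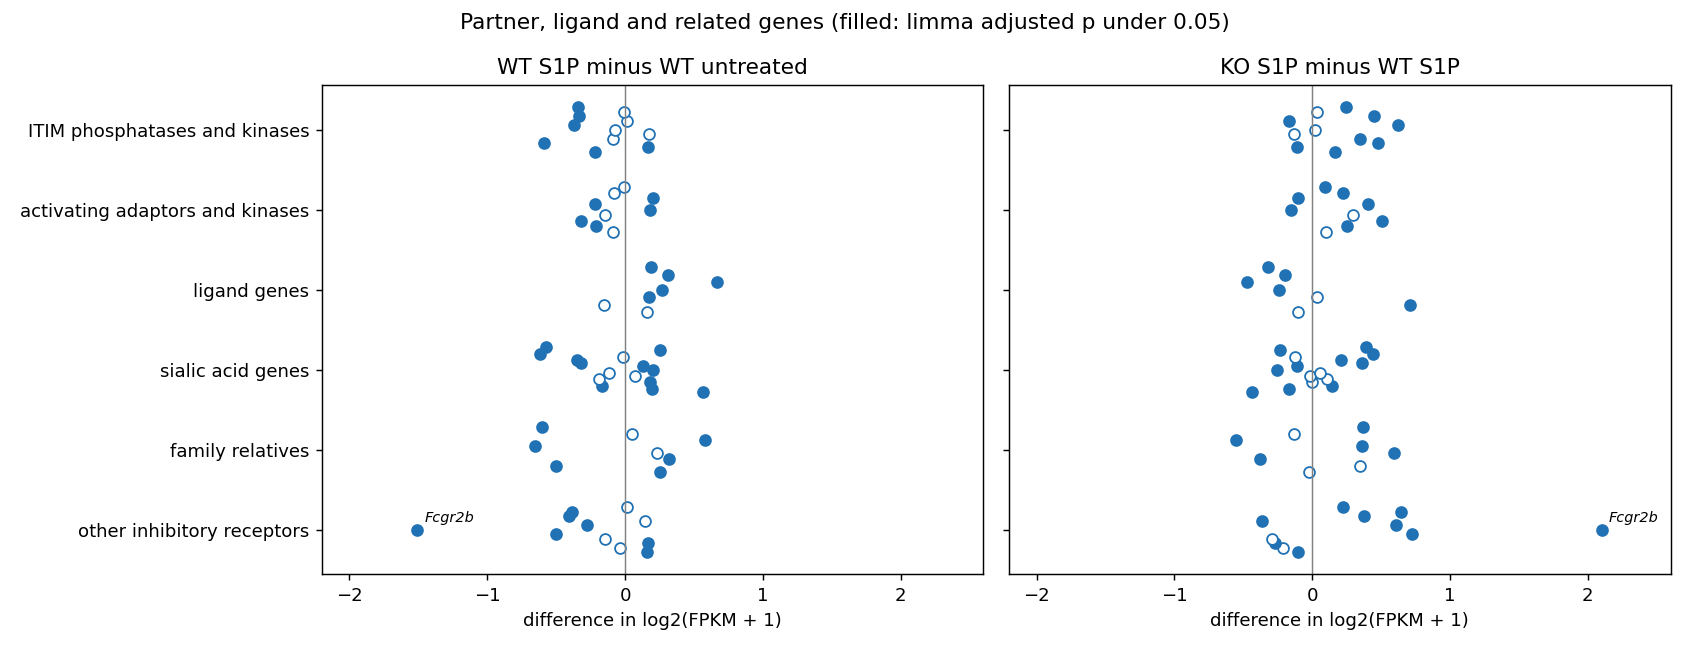
Difference in log2(FPKM + 1) of each tested partner, ligand and related gene, by list, for WT S1P minus WT untreated and for KO S1P minus WT S1P, with filled points for a limma adjusted p under 0.05. Fcgr2b lies farthest out in both panels, at -1.51 and 2.10.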

How the data were processed

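Poly(A)-selected RNA of the 24 libraries had been sequenced, and the deposited table holds FPKM values per Ensembl gene, made by the authors. Tools listed in the submitters' processing notes are the aligners STAR and HISAT2, then StringTie, featureCounts, STAR-Fusion, DESeq and edgeR, on mm10 (GRCm38). The sources used here give no role, version or strand setting for them. Gene names, positions and exon lengths came from GENCODE M21, which matched 54495 of 54532 identifiers. With those lengths, 26186 of the 27013 genes above 0 gave whole reads in every library (within 0.05 reads, 96.9%), from which depth was recovered: 16591455 to 25153882 reads per library.

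Genes with at least 1 FPKM in at least 4 libraries (11377) were fitted with limma 3.58.1 (R 4.3.3) on log2(FPKM + 1), 6 group means over all 24 libraries, a mean-variance trend and Benjamini-Hochberg adjustment over all genes tested, with calls at 0.05. The code was tested on simulated data. The members and the lists were chosen with earlier results of these data known, and no p is adjusted over a list. Tests of Lilrb4a and Lilr4b are not read in any comparison with KO libraries. Named genes are the 10 members, Trem2, from each list the genes of smallest adjusted p (at most 4) in the 2 WT comparisons with untreated cells and the 2 genotype comparisons under treatment, also given in other comparisons, and the 5 genes nearest in profile to Lilrb4a and Lilr4b. Alternatives were TPM, median and quantile scaling, a pseudocount of 0.1, no filter, a filter at 5 FPKM, voom on the recovered reads, only the groups compared, robust empirical Bayes, and each library left out. Promoters were read from RefSeq (GRCm38.p6). Python 3.11.15 with pandas 2.3.3 and matplotlib 3.10.9 was used for the other steps. Whole-gene FPKM of Trem2 does not show which part the allele removes.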

Additional observations from a re-analysis of the deposited data

Results flagged for a closer look

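In 2 of the 60 groups of 4 libraries looked at, 1 library stood far from the other 3, where chance marks about 1 in 20 groups. Cd300a had 24.0 FPKM in KO ACM 87, with the other 3 libraries at 21.4 to 21.6 FPKM. Cd33 had 16.7 FPKM in the library labelled KO untreated 81, with the other 3 at 34.5 to 36.4 FPKM.

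For 5 members the response to ACM differed between genotypes by the interaction test, KO response minus WT response in log2(FPKM + 1). The values were -0.19 for Pirb, -0.13 for Sirpa, -0.77 for Cd300a, -0.45 for Cd300ld and 1.29 for Cd33. For S1P the values were -0.36 for Pirb, -1.82 for Cd300a, -0.26 for Cd300ld and 1.97 for Cd33.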

How the results depend on the processing

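Of 37 member differences called by limma, 23 kept their call and direction in all 33 alternatives (24 leave out 1 library), 14 lost the call in at least 1, and 0 reversed. All Cd33 and Cd300a calls were kept. The number of members called moved to 3 with TPM scaling for ACM in WT; for S1P against ACM in WT, to 2 with TPM scaling or quantile normalization and to 3 with median scaling or no filter; for KO against WT untreated, to 0 with TPM scaling or only the groups compared; and for the ACM interaction, to 3 with TPM scaling. Only changes large in proportion to the count are listed. For KO against WT with ACM, for example, Pirb and Sirpa also lost their calls with TPM scaling. TPM scaling shifted the median of all genes by -0.11 for ACM in WT and by 0.12 for the ACM interaction. Leaving out 1 library gave 4 to 5 calls for ACM in WT, 5 to 5 for S1P in WT, 3 to 6 between them (3 without WT ACM 20 or 22), 1 to 2 for KO against WT untreated (2 without WT S1P 25 or KO untreated 81), 4 to 6 for KO against WT with ACM, 6 to 7 with S1P, 0 to 0 among KO groups, 4 to 5 for the ACM interaction and 3 to 4 for the S1P interaction. Uncalled values changed sign as follows. With TPM scaling, Lilrb4a was at -0.077 and Sirpa at -0.059 for ACM in WT, Lilr4b at -0.0079 and Cd300lf at -0.035 for S1P in WT, and Cd300a at -0.026 for S1P in KO. With quantile normalization, Lilrb4a was at -0.046 for ACM in WT, Lilr4b at 0.036 for S1P against ACM in WT and Sirpa at -0.013 in the S1P interaction. Leaving out 1 library, the range was -0.0071 to 0.13 for Lilrb4a and -0.16 to 0.097 for Siglece with ACM in WT (other signs without WT untreated 1 or 3, and without WT untreated 1 or WT ACM 22). It was -0.00064 to 0.094 for Lilr4b and -0.0071 to 0.031 for Cd300lf with S1P in WT (without WT untreated 3, and without WT untreated 1 or WT S1P 27 or 28). For Cd300a it was -0.00045 to 0.057 for KO ACM against untreated and -0.038 to 0.015 for KO S1P against KO ACM (without KO ACM 87). The cause was not tested. No paired analysis was possible because the groups compared share no replicate numbers. Depth limits Siglece and Lilra5, at 19 to 60 and 0 to 11 reads per library.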
